A study of Mus musculus with 67 samples.

Results

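Livers of 11 mice of the Sestrin DKO line (genotype label Sesn2 DKO) are described, 6 that ate a leucine-free diet for 8 days and 5 that ate the control diet for 8 days. They were taken by genotype, diet and day from the 67 liver RNA libraries of the study, which also holds wild-type (WT) mice and feeding for 1 day. Their response is set beside that of WT livers at day 8 (6 leucine-free and 5 control) and that of DKO livers at day 1 (18 leucine-free and 8 control). Each library is 1 numbered mouse and whole liver. The alleles, the age and the sex of the mice are not given in the sources used here. Nothing says which mice shared a litter or a cage, and each was taken as independent. The p-values measure the spread between mice within groups, pooled over the 67 libraries, and not that of these 11 mice alone. The control mice carry the same DKO genotype, so the comparison shows the diet and not the loss of the sestrins.

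Leucine is an essential amino acid, and mammalian cells sense its absence by separate routes. Uncharged tRNA activates the kinase GCN2, which slows translation as a whole while raising that of ATF4, and ATF4 switches on genes for the synthesis, uptake and tRNA loading of amino acids, the integrated stress response. Sestrin2 binds leucine, and without leucine it holds back mTORC1, the kinase complex that drives the making of ribosomes, translation and lipid synthesis. In mouse liver, a diet without leucine is known to lower the genes of fatty acid synthesis.

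The 11 libraries held between 31987869 and 52190335 counts, and levels are given as CPM, the counts of a gene set against the library total, scaled with TMM for library composition. CPM compares libraries for a gene and not genes with each other. The leucine-free livers differed among themselves more than the control livers did. The mean squared residual of a library from the fit was 0.230 to 0.517 in leucine-free livers, against 0.128 to 0.176 in control livers, and the median gene had a standard deviation (SD) of log2 CPM of 0.35 in leucine-free livers, against 0.20 in control livers (in WT livers of day 8, 0.23 leucine-free and 0.27 control). Leucine-free mouse 6 stood farthest apart, with a residual of 0.517, and mouse 1 next, with 0.418. Sesn1 had 4.92 to 7.68 CPM (median 5.99) in leucine-free livers, against 5.57 to 7.22 CPM in control livers, and did not pass the test between diets (adjusted p = 0.686). A count over the whole of Sesn2 does not check its label. All 11 libraries held Xist counts and none held counts of 4 Y-linked genes.

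**Figure D1:**
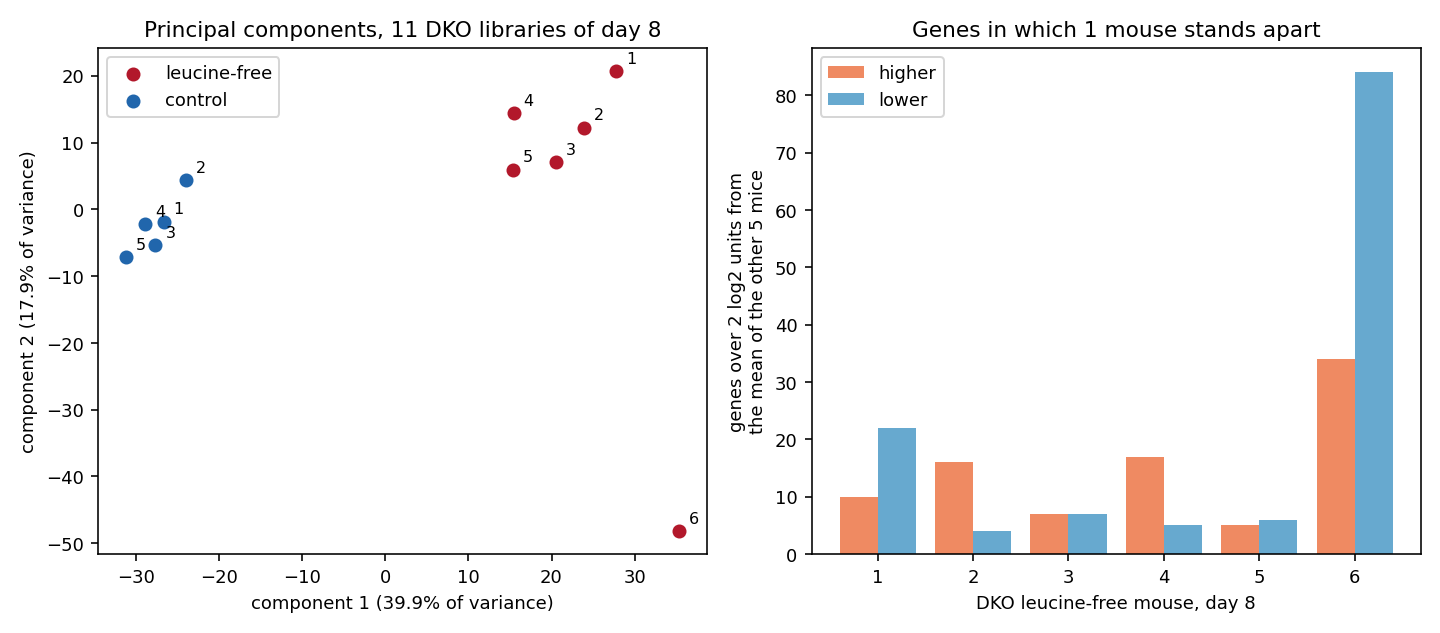
The left panel plots the 11 libraries on the first 2 principal components of log2 CPM, which hold 39.9% and 17.9% of the variance, and the right panel counts, for each leucine-free mouse, the genes of at least 5 CPM that lie more than 2 log2 units above or below the mean of the other 5 leucine-free mice. Component 1 separates leucine-free from control livers, and mouse 6, with 34 genes above and 84 below, stands apart on component 2.

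Of 16908 genes tested, 1874 were higher and 1608 lower in leucine-free livers at a Benjamini-Hochberg adjusted p under 0.05 by edgeR's quasi-likelihood test, in a model of all 67 libraries. That is 20.6% of genes, 11.1% higher and 9.51% lower, and these shares are the background for every count of list members below. The median log2 fold change over all genes tested was 0.01. A bracket after a gene's levels holds its log2 fold change (leucine-free minus control), the standard error (SE) after the sign ± and the adjusted p, and sizes given as "rose by" or "fell by" are also on the log2 scale. A change over 2-fold was seen in 359 higher and 563 lower genes. In a fit of the 11 libraries alone 2235 of the 3332 calls tested there were called again, all in the same direction, and 2816 calls were made again without mouse 6. The 11 libraries alone gave 16.1% of genes called (8.3% higher and 7.77% lower), and the fit without mouse 6 gave 19.4% (9.89% higher and 9.47% lower). The 6 leucine-free and 5 control livers did not overlap for 10.9% of genes (5.32% higher and 5.57% lower). A call that ended when 1 mouse was left out is named as such beside the gene. Calls not made in the 11 libraries alone are also named there, apart from those of Nupr1, Plin4, Mogat1, Otc, Nags, Pycr1, Gars, Col1a2, Pola1 and Serpina1a, which were not made there either.

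The largest rises took in stress, hormone and transport genes. Akr1b7, an aldo-keto reductase, had 4.31 to 136 CPM (median 17.1) in leucine-free livers, against 0.646, 1.64, 1.86, 3.29 and 1.22 CPM in control livers. The groups did not overlap, and mouse 6 was far above the other 5. Its log2 fold change was 4.36 ± 0.67, adjusted p = 1.36e-06, and 3.08 without mouse 6. Cdkn1a encodes p21, the inhibitor of cyclin-dependent kinases. It had 39.0 to 70.2 CPM (median 53.4) in leucine-free livers, against 7.52, 6.96, 4.48, 9.93 and 4.47 CPM in control livers, so that each leucine-free liver lay well above all control livers (log2 fold change 3.04 ± 0.64, adjusted p = 0.000313). Slc4a9, an anion exchanger, had 4.98 to 16.7 CPM in leucine-free livers, against 0.676 to 2.38 CPM in control livers (2.51 ± 0.46, adjusted p = 4.07e-05). Dio3os, a transcript antisense to the deiodinase gene Dio3, had 3.59 to 9.59 CPM in leucine-free livers, against 0.640 to 1.48 CPM in control livers (2.63 ± 0.44, adjusted p = 5.57e-06). The sources do not say whether counting used strand, so reads of an antisense gene cannot be told from those of its partner. Tsku, a secreted proteoglycan made by liver, had 18.2 to 75.9 CPM in leucine-free livers, against 3.41 to 7.17 CPM in control livers without overlap (2.75 ± 0.94, adjusted p = 0.0295), but was not called without mouse 6 or without any 1 of control mice 1, 3, 4 and 5 (adjusted p from 0.0537 to 0.0737). Vmn2r3 bears the name of a vomeronasal receptor and had no count in any control liver, against 0, 184, 149, 117, 6 and 1634 counts in leucine-free mice 1 to 6. Its mean was at least 666-fold higher, set against a floor of 3 counts over the control group, and most of it is mouse 6.

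The largest falls were in lipid, transport and secreted-protein genes. Chrna4, a subunit of the nicotinic acetylcholine receptor, had 0.536, 0, 0.871, 0.120, 0.0810 and 0.0770 CPM in leucine-free mice 1 to 6, against 107, 57.7, 92.9, 144 and 84.8 CPM in control livers. No leucine-free liver reached 1 CPM, and the log2 fold change was -8.41 ± 0.59, adjusted p = 1.84e-20, and -9.23 without mouse 3, the highest of them. Pnpla3, a lipid droplet protein that rises with lipogenesis, had 0.0513 to 1.49 CPM (median 0.799) in leucine-free livers, against 31.8, 30.2, 10.6, 43.0 and 11.0 CPM in control livers, again without overlap (log2 fold change -5.08 ± 0.71, adjusted p = 1.47e-07). Aqp8, a water channel of hepatocytes, had 9.67 to 38.4 CPM in leucine-free livers, against 281 to 491 CPM in control livers (-3.87 ± 0.45, adjusted p = 1.04e-09). Both hepatocyte genes thus stood apart from their controls in all 6 mice. Fabp5, a fatty acid binding protein, had 4.71 to 17.6 CPM in leucine-free livers, against 105 to 260.1 CPM in control livers (-3.78 ± 0.57, adjusted p = 8.97e-07). Serpina12, which encodes the secreted protein vaspin, had 0.169 to 1.37 CPM in leucine-free livers, against 5.47 to 17.6 CPM in control livers (-4.03 ± 0.58, adjusted p = 2.16e-07). Dct, dopachrome tautomerase, had 0.103 to 1.03 CPM in leucine-free livers, against 3.97 to 9.37 CPM in control livers (-3.70 ± 0.55, adjusted p = 6.73e-07). All 4 were lower in each leucine-free liver than in each control liver. A1bg, a plasma glycoprotein, had 1.24 to 24.1 CPM (median 2.84) in leucine-free livers, against 50.9, 235, 116, 138 and 692 CPM in control livers, with 1 control mouse several times above the rest (log2 fold change -5.14 ± 1.20, adjusted p = 0.00116, and -4.27 without that mouse, or -6.07 without leucine-free mouse 4).

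Genes of the integrated stress response rose in part. Of 33 tested, 13 were higher and 1 was lower, with a median log2 fold change of 0.50. The members that rose were mostly enzymes of amino acid synthesis and regulators downstream of ATF4, while Fgf21 and Atf4 itself were not called. With mouse 6 left out 10 of the list were higher and the median was 0.29, and in the 11 libraries alone 10 were higher.

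Asns, asparagine synthetase, had 2.11, 28.2, 14.7, 10.2, 4.33 and 33.6 CPM in leucine-free mice 1 to 6, against 1.27, 1.06, 1.43, 1.13 and 1.95 CPM in control livers. The groups did not overlap, but mouse 1 lay just above the highest control liver while mice 2 and 6 were more than 10-fold above it (log2 fold change 3.48 ± 0.73, adjusted p = 0.000304). Psat1, an aminotransferase of serine synthesis, had 0.705, 9.29, 5.30, 6.82, 2.11 and 24.8 CPM in leucine-free mice 1 to 6, against 1.02 to 1.63 CPM in control livers, with mouse 1 below every control liver (2.72 ± 0.51, adjusted p = 5.56e-05, and 1.94 without mouse 6). Phgdh, the first enzyme of the same route, had 0.209 to 2.57 CPM in leucine-free livers, against 0.265 to 0.417 CPM in control livers and was not called (adjusted p = 0.0672). A call of Phgdh was made without any 1 of mice 1, 2, 4 and 5 (adjusted p from 0.0308 to 0.0444). Trib3, a pseudokinase that feeds back on ATF4, had 19.3 to 246 CPM (median 49.2) in leucine-free livers, against 8.06, 11.0, 7.90, 9.04 and 9.29 CPM in control livers. Every leucine-free liver was above every control liver (log2 fold change 3.13 ± 0.57, adjusted p = 3.9e-05, and 2.33 without mouse 6). Atf5, a transcription factor related to ATF4, had 1214 to 3378 CPM in leucine-free livers, against 653 to 808 CPM in control livers (1.50 ± 0.22, adjusted p = 3.91e-07).

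Herpud1, a protein of endoplasmic reticulum quality control, ran in another order among the mice. It had 618, 235, 534, 359, 373 and 170.0 CPM in leucine-free mice 1 to 6, against 138, 209, 112, 137 and 167 CPM in control livers, so that mouse 6, the highest for Asns and Trib3, was within the control range (log2 fold change 1.32 ± 0.37, adjusted p = 0.00618). Cebpb, a transcription factor that pairs with ATF4, had 73.8 to 234 CPM in leucine-free livers, against 47.0 to 74.7 CPM in control livers (1.07 ± 0.31, adjusted p = 0.00935) and was not called without mouse 1 (adjusted p = 0.0584). Among enzymes of sulfur and alanine metabolism on the list, Cth, cystathionine gamma-lyase, had 419 to 712 CPM in leucine-free livers, against 266 to 365 CPM in control livers (0.85 ± 0.25, adjusted p = 0.0101). Gpt2, mitochondrial alanine aminotransferase, had 247 to 612 CPM in leucine-free livers, against 201 to 291 CPM in control livers (0.84 ± 0.27, adjusted p = 0.0201). The groups of Cth did not overlap. Gpt2 lost its call without mouse 6 or control mouse 2 (adjusted p = 0.0565 and 0.0538). Nupr1, a stress-induced chromatin protein, was called (1.21 ± 0.41, adjusted p = 0.026), but mouse 6 had 34.1 CPM and the other leucine-free livers 2.55 to 5.84 CPM, against 2.92 to 5.43 CPM in control livers. Without mouse 6 its log2 fold change was -0.00, and leaving out control mouse 1, 4 or 5 ended its call as well (adjusted p from 0.0507 to 0.998 over these 4 mice). Pycr1, of proline synthesis, was higher by 1.44 with a call that 8 of the 11 mice, left out in turn, could end (adjusted p from 0.0566 to 0.315), and 0.83 without mouse 6. Shmt2, a mitochondrial enzyme of serine breakdown to glycine, was the member that fell, with 131 to 212 CPM in leucine-free livers, against 226 to 232 CPM in control livers and no overlap (-0.44 ± 0.11, adjusted p = 0.00355).

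Several named markers of the response did not pass. Fgf21, a hormone released by the liver in amino acid shortage, had 1.46 to 8.88 CPM (median 3.41) in leucine-free livers, against 3.79, 7.25, 0.877, 6.78 and 5.28 CPM in control livers, with full overlap (log2 fold change -0.10 ± 0.72, adjusted p = 0.946). Atf4 had 87.7 to 129 CPM in leucine-free livers, against 98.3 to 133 CPM in control livers (-0.07 ± 0.15, adjusted p = 0.788), and its control is known to lie in translation. Ddit3, which encodes CHOP, had 7.34 to 20.9 CPM in leucine-free livers, against 4.70 to 8.66 CPM in control livers (0.84 ± 0.51, adjusted p = 0.253). Chac1, which degrades glutathione, had 1.46 to 19.3 CPM in leucine-free livers, against 2.28 to 10.2 CPM in control livers (0.82 ± 0.51, adjusted p = 0.271). Gdf15, a stress hormone, had 5.71 to 18.7 CPM in leucine-free livers, against 3.56 to 16.2 CPM in control livers (0.11 ± 0.43, adjusted p = 0.897). Ddit4, an inhibitor of mTORC1, had 46.5, 17.7, 97.3, 115 and 13.6 CPM in leucine-free mice 1, 2, 3, 4 and 6 and 6.13 CPM in mouse 5, against 18.5, 9.11, 17.1, 14.1 and 6.54 CPM in control livers (1.91 ± 0.73, adjusted p = 0.0511). A call of Ddit4 was made without any 1 of mice 2, 5 and 6 (adjusted p from 0.0286 to 0.0417) and in some alternative fits.

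Promoters of 3 of these genes are shown because these genes rose and their sequence holds the C/EBP-ATF element that ATF4 is known to bind, searched here as TGATGNAA on both strands from 250 bases before to 50 after the gene's start (RefSeq, GRCm38.p6). Capitals mark the match, in either orientation, and each is printed on the strand of its gene. The matches begin at -23 from the start in Asns (chr6:7693160-7693459, minus strand), at 14 in Trib3 (chr2:152344011-152344310, minus strand) and at -112 in Herpud1 (chr8:94386179-94386478, plus strand).
Asns: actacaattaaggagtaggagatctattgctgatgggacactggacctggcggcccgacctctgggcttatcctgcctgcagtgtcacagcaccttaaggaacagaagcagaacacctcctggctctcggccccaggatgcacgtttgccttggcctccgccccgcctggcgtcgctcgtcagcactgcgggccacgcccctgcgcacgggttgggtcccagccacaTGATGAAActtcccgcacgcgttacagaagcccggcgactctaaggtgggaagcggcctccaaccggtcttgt
Trib3: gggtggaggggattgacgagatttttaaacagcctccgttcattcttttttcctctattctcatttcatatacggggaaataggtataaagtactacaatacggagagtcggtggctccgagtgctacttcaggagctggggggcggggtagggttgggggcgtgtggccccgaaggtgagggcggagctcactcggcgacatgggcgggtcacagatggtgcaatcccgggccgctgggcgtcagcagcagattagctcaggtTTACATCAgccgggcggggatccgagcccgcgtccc
Herpud1: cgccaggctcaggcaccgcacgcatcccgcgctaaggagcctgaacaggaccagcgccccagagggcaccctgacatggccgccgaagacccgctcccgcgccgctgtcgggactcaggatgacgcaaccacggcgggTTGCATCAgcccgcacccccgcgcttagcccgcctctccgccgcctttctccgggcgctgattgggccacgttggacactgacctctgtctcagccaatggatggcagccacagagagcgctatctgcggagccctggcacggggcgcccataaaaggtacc
The letters occur in the promoters of 1219 of 27025 genes (4.51%) and of 11 of the 31 stress response genes that have an entry. Among the 11 are Fgf21 and Chac1, which were not called. A match describes the sequence and does not show binding.

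Enzymes that load tRNA, which are also targets of ATF4, moved in both directions. Of 20 cytosolic aminoacyl-tRNA synthetases 7 were higher and 3 lower, with a median of 0.05, and 4 were higher without mouse 6 or any 1 of control mice 1, 3 and 5. Sars, for serine, had 81.5 to 199 CPM in leucine-free livers, against 62.2 to 74.7 CPM in control livers without overlap (0.68 ± 0.12, adjusted p = 2.05e-05), and mouse 6 again was the highest. Eprs, for glutamate and proline, rose by 0.75 ± 0.14, Vars, for valine, by 0.49 ± 0.09, and Qars, for glutamine, by 0.29 ± 0.07 (adjusted p = 5.02e-05, 6.38e-05 and 0.00139). Leucyl-tRNA synthetase, Lars, was among the genes not called. Cars, for cysteine, had 15.4 to 31.5 CPM in leucine-free livers, against 31.1 to 41.0 CPM in control livers (-0.69 ± 0.17, adjusted p = 0.00175). Tars, for threonine, and Yars, for tyrosine, fell by 0.40 ± 0.11 and 0.39 ± 0.14 (adjusted p = 0.00557 and 0.034). The call of Yars ended when any 1 of 8 mice was left out (adjusted p from 0.0521 to 0.0887). Of 12 synthetase genes with a promoter entry 5 hold TGATGNAA (Aars, Gars, Iars, Tars and Yars), of which Gars rose (0.34 ± 0.12, adjusted p = 0.0349, a call that 6 of the 11 mice could end, with adjusted p from 0.0516 to 0.353) and Tars and Yars fell.

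Amino acid transporters were called at shares near the background. Of 21 tested, 3 were higher (14.3%) and 2 lower (9.52%), with a median of 0.05. Slc1a5, the glutamine carrier, had 6.11 to 10.7 CPM in leucine-free livers, against 3.49 to 4.95 CPM in control livers without overlap (0.90 ± 0.21, adjusted p = 0.00123). Slc16a10, a carrier of aromatic amino acids, had 99.1 to 227 CPM in leucine-free livers, against 109.6 to 150.4 CPM in control livers (0.58 ± 0.15, adjusted p = 0.00376), where mouse 6 alone was below the control livers. Slc3a2, the heavy chain of the leucine exchanger, had 53.9 to 66.8 CPM in leucine-free livers, against 41.5 to 49.8 CPM in control livers (0.31 ± 0.11, adjusted p = 0.0319), and its call ended without mouse 6 or any 1 of control mice 1, 3 and 5 (adjusted p from 0.0549 to 0.101). The members that fell were Slc1a4, a carrier of alanine and serine (-0.99), and Slc7a8, an exchanger of neutral amino acids (-0.76). Each lost its call without any 1 of 4 mice (adjusted p from 0.0509 to 0.0583 for Slc1a4 and from 0.0616 to 0.102 for Slc7a8), and Slc7a8 was not called in the 11 libraries alone either.

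Genes of amino acid breakdown rose at a few steps. Of 33 genes of amino acid catabolism 7 were higher and 1 was lower, with a median of 0.22, and 9 were higher and 3 lower in the 11 libraries alone. Mat1a makes S-adenosylmethionine and Ahcy hydrolyses its product. Mat1a had 4407 to 7336 CPM (median 5833) in leucine-free livers, against 3772, 3121, 3317, 3452 and 3204 CPM in control livers, without overlap (log2 fold change 0.83 ± 0.17, adjusted p = 0.000139). Ahcy had 1152 to 1542 CPM in leucine-free livers, against 659.9 to 879 CPM in control livers, also without overlap (0.84 ± 0.14, adjusted p = 6.54e-06). Gpt, cytosolic alanine aminotransferase, had 397 to 659.9 CPM in leucine-free livers, against 256 to 384 CPM in control livers (0.78 ± 0.23, adjusted p = 0.0096). Sdsl, a serine dehydratase-like gene, had 15.9 to 48.3 CPM in leucine-free livers, against 9.43 to 15.6 CPM in control livers (0.92 ± 0.20, adjusted p = 0.0004). Csad, of taurine synthesis, had 36.6 to 233 CPM in leucine-free livers, against 13.7 to 92.3 CPM in control livers (2.12 ± 0.69, adjusted p = 0.0215), and was not called without any 1 of control mice 1, 3, 4 and 5 (adjusted p from 0.0546 to 0.0645), while without control mouse 2 it stood at 2.82. Haao, of tryptophan breakdown, was lower without overlap, with 216 to 537 CPM in leucine-free livers, against 611 to 728 CPM in control livers (-0.64 ± 0.14, adjusted p = 0.000356).

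Of 19 genes of branched-chain amino acid breakdown, the route that uses leucine, 2 were higher and 0 were lower, with a median of 0.05. The share higher, 10.5%, was near the background, and 4 were higher in the 11 libraries alone. Bcat2, the branched-chain aminotransferase, had 42.2 to 66.5 CPM (median 48.4) in leucine-free livers, against 38.3, 37.7, 30.8, 31.3 and 26.3 CPM in control livers (log2 fold change 0.66 ± 0.16, adjusted p = 0.00148). Bckdha, a subunit of the branched-chain ketoacid dehydrogenase, had 286 to 369.6 CPM in leucine-free livers, against 228 to 254 CPM in control livers (0.39 ± 0.09, adjusted p = 0.00132), and neither gene's groups overlapped. In the urea cycle Cps1, Ass1 and Arg1 were not called (adjusted p = 0.857, 0.73 and 0.119), and Otc was lower, by -0.36, with a call that 5 of the 11 mice could end (adjusted p from 0.0513 to 0.118). Nags, which makes the activator of Cps1, was higher by 0.37, a call that 8 of the 11 could end (adjusted p from 0.0503 to 0.181). Tat, tyrosine aminotransferase, had 1467 to 2806 CPM in leucine-free livers, against 728 to 1465 CPM in control livers and was not called (adjusted p = 0.068), although the groups did not overlap. Both Tat and Arg1 were called in the 11 libraries alone.

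Of 33 genes of leucine sensing and the mTORC1 pathway 3 were higher and 3 lower (9.09% each). Sesn3, the third sestrin, was lower without overlap, with 25.1 to 34.2 CPM in leucine-free livers, against 49.1 to 56.5 CPM in control livers (-0.89 ± 0.13, adjusted p = 4.36e-07). Depdc5, a subunit of GATOR1, which inhibits mTORC1, and Castor2, of an arginine-sensing family, fell by 0.32 and 0.55. The members that rose were Akt1s1, an mTORC1 inhibitor (0.34), Rheb, its activating GTPase (0.23), and Mios, a subunit of GATOR2 (0.24). Castor2, Akt1s1, Rheb and Mios were not called in the 11 libraries alone. Leaving out 1 mouse ended the call of Castor2 for 5 of the 11 (adjusted p from 0.0534 to 0.0975) and that of Mios for mouse 5 and control mouse 2 (adjusted p from 0.0513 to 0.0706). Sesn2, counted as a stress response gene, had 13.4 to 29.9 CPM in leucine-free livers, against 11.8 to 14.5 CPM in control livers (0.66 ± 0.20, adjusted p = 0.0116), in counts that cannot show whether its transcript is whole. Eif4ebp3, a repressor of cap-dependent translation, had 3.31 to 26.3 CPM (median 10.8) in leucine-free livers, against 2.02, 1.93, 1.86, 3.47 and 1.85 CPM in control livers (log2 fold change 2.65 ± 0.44, adjusted p = 5.57e-06). Its reads may in part belong to a gene that overlaps it.

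**Figure D2:**
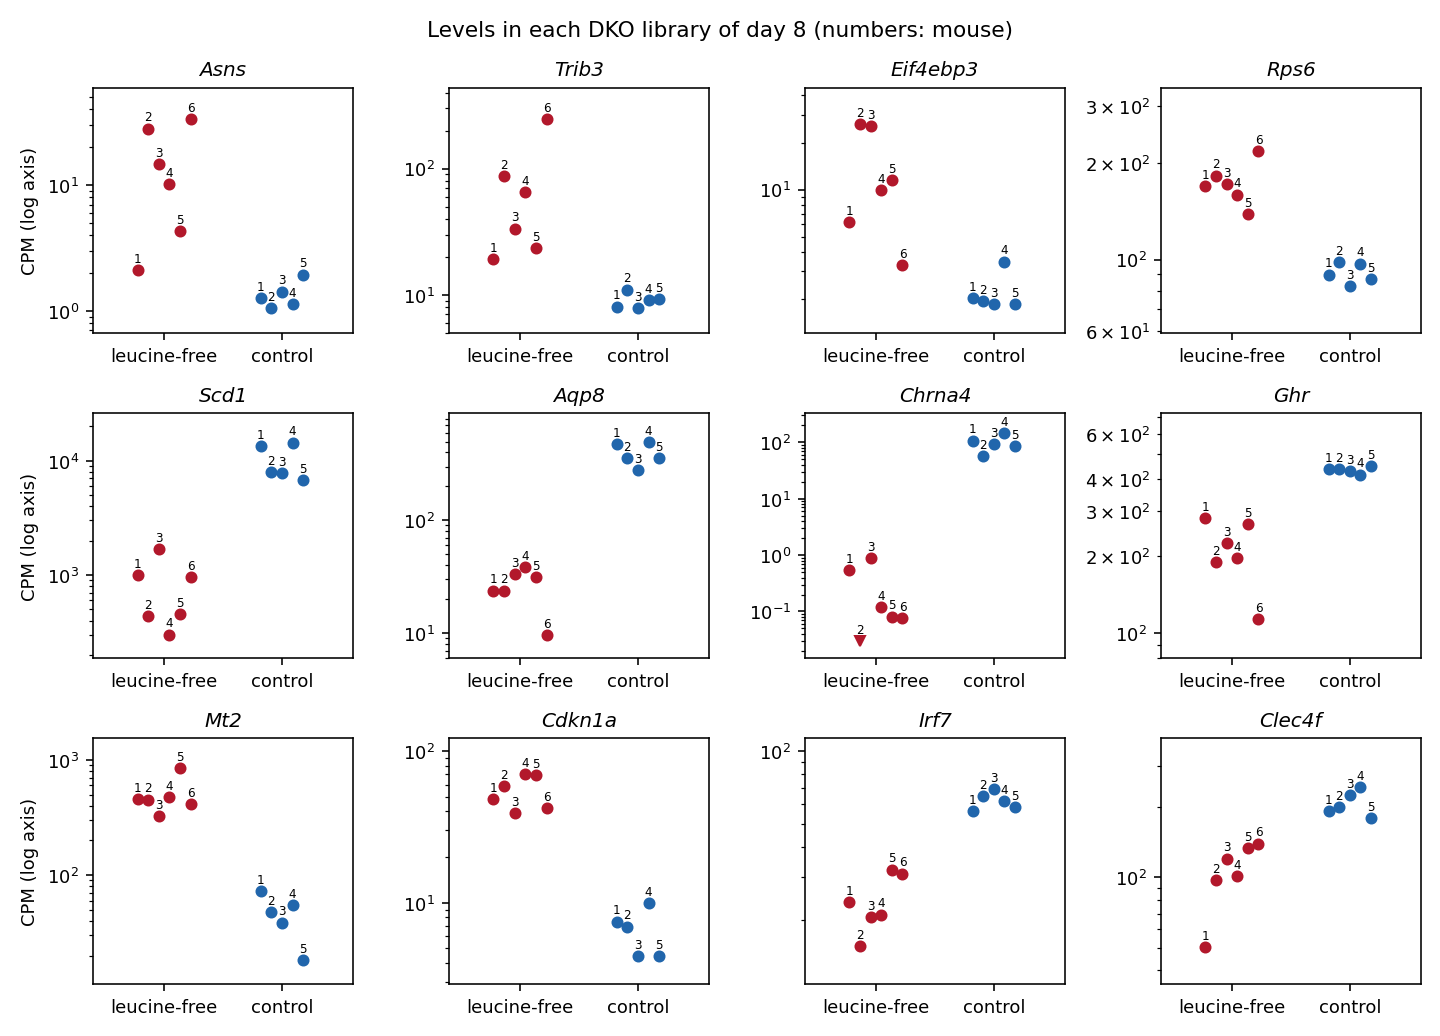
Each panel plots the CPM of a gene, on a log axis, in the 6 leucine-free (left) and 5 control (right) livers of day 8, with 1 point a mouse, its number above it, and a triangle for a count of 0 drawn at the bottom. Asns, Trib3, Rps6, Mt2 and Cdkn1a lie higher, and Scd1, Aqp8, Chrna4, Ghr, Irf7 and Clec4f lower, in every leucine-free liver than in every control liver, while mouse 6 of Eif4ebp3 overlaps with a control liver.

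The machinery of translation rose as a group. All 78 cytosolic ribosomal protein genes tested were higher, from Rpl15 at 0.43 to Rpl13a at 1.40, with a median of 0.75. Their summed level was 16193 to 27561 CPM in leucine-free livers, against 11440.0 to 12619 CPM in control livers, without overlap. Of 28 translation factors 20 were higher and none lower (median 0.39), and of 28 genes of ribosome biogenesis 21 were higher and none lower (median 0.45), 14 of them without mouse 6.

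Rps6, the ribosomal protein that S6 kinase phosphorylates, had 138 to 218 CPM in leucine-free livers, against 82.7 to 98.3 CPM in control livers (0.93 ± 0.08, adjusted p = 3.33e-13). Rpl8, of the large subunit, had 408 to 642 CPM (median 483) in leucine-free livers, against 284, 307, 274, 285 and 259.5 CPM in control livers (log2 fold change 0.80 ± 0.08, adjusted p = 2.06e-11). Rpl14, also of the large subunit, had 194 to 325 CPM in leucine-free livers, against 112 to 132 CPM in control livers (0.99 ± 0.09, adjusted p = 3.49e-12). Rps19, of the small subunit, had 143 to 257 CPM in leucine-free livers, against 87.6 to 99.3 CPM in control livers (0.93 ± 0.10, adjusted p = 9.61e-11). In all 4, mouse 6 was the highest and every leucine-free liver was above every control liver. Rpl3, of the large subunit, had 236 to 446 CPM in leucine-free livers, against 184 to 215 CPM in control livers (0.64 ± 0.13, adjusted p = 0.000189). Eef2, which moves the ribosome along, had 2283 to 2755 CPM in leucine-free livers, against 1329.8 to 1709.8 CPM in control livers (0.72 ± 0.08, adjusted p = 1.49e-10). Npm1 and Ncl, abundant proteins of the nucleolus, rose by 0.87 ± 0.11 and 0.71 ± 0.10 (adjusted p = 4.3e-09 and 3.83e-07). Reads of ribosomal protein genes can also match their many pseudogenes.

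Nuclear genes of mitochondria rose in part. Of 77 mitochondrial ribosomal proteins 25 were higher and 1 was lower (median 0.13), and of 75 nuclear genes of oxidative phosphorylation 17 were higher and 1 was lower. In the 11 libraries alone these counts of higher genes were 12 and 4, without mouse 6 they were 13 and 9, and without control mouse 5 16 and 9. None of the 13 mitochondrially coded genes was higher and 2 were lower. Of 31 proteasome genes 6 were higher and 2 lower, with 1 higher without mouse 6 or in the 11 libraries alone, 2 higher without control mouse 1, and 0 to 2 lower as mice were left out in turn.

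Genes of fatty acid synthesis were lower along most of the route. Of 21 genes 16 were lower and none was higher, with a median of -1.58. Acly splits citrate to acetyl-CoA for fat synthesis and had 103 to 205 CPM (median 145) in leucine-free livers, against 1175, 749, 866, 1194 and 1071 CPM in control livers. The groups were far apart (log2 fold change -2.79 ± 0.30, adjusted p = 1.42e-10). Acss2, which makes acetyl-CoA from acetate, had 32.0 to 164 CPM in leucine-free livers, against 487 to 1064 CPM in control livers (-3.12 ± 0.38, adjusted p = 3.66e-09). Both enzymes make cytosolic acetyl-CoA. Of the acetyl-CoA carboxylases, which commit it to fat, Acaca had 44.4 to 92.1 CPM in leucine-free livers, against 184 to 243 CPM in control livers (-1.58 ± 0.21, adjusted p = 5.94e-08). Its sister gene Acacb had 18.8 to 80.2 CPM in leucine-free livers, against 274 to 524 CPM in control livers (-2.89 ± 0.31, adjusted p = 7.75e-11). Fasn, fatty acid synthase, had 176 to 486 CPM (median 204) in leucine-free livers, against 2583, 1912, 1402, 2381 and 1729 CPM in control livers (log2 fold change -2.91 ± 0.38, adjusted p = 2.08e-08). Elovl6, which extends the chain, had 22.9 to 74.8 CPM in leucine-free livers, against 262 to 485 CPM in control livers (-2.99 ± 0.35, adjusted p = 1.55e-09). Scd1, the desaturase, had 302 to 1678 CPM in leucine-free livers, against 6819.9 to 14375 CPM in control livers (-3.64 ± 0.61, adjusted p = 8.1e-06). These 3 genes build, lengthen and desaturate the chain. Thrsp, a lipogenic regulator, had 4.05 to 56.4 CPM in leucine-free livers, against 243 to 489 CPM in control livers (-3.51 ± 0.66, adjusted p = 5.55e-05). Me1, malic enzyme, had 74.7 to 134 CPM in leucine-free livers, against 302 to 513 CPM in control livers (-2.05 ± 0.29, adjusted p = 1.64e-07). In none of these 9 did the groups overlap. Srebf1, which encodes the lipogenic factor SREBP1, was not called, with 203 to 413 CPM in leucine-free livers, against 211 to 418 CPM in control livers (-0.32 ± 0.28, adjusted p = 0.469).

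Genes that supply NADPH and pyruvate to that route fell with it. Of 8 genes of the pentose phosphate pathway 5 were lower and 1 was higher, the last with a call that 5 of the 11 mice could end. G6pdx, its entry enzyme, had 5.23 to 7.98 CPM (median 6.99) in leucine-free livers, against 32.4, 19.5, 24.9, 48.6 and 20.6 CPM in control livers (log2 fold change -2.10 ± 0.27, adjusted p = 2e-08). Pgd, the next dehydrogenase, had 20.6 to 76.3 CPM in leucine-free livers, against 70.0 to 90.7 CPM in control livers, where mouse 6 alone reached the control range (-0.9996 ± 0.20, adjusted p = 0.000192). Rpia, an isomerase, had 3.54 to 5.05 CPM in leucine-free livers, against 6.98 to 9.09 CPM in control livers (-0.99 ± 0.18, adjusted p = 1.94e-05). Pklr, liver pyruvate kinase, had 72.1 to 189 CPM in leucine-free livers, against 509 to 648 CPM in control livers (-2.33 ± 0.31, adjusted p = 4.66e-08), as 1 of 3 lower and no higher genes among 15 of glucose and fructose use.

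Cholesterol synthesis was lower at most steps. Of 25 genes 20 were lower and none was higher, with a median of -1.40. Sc5d, a late desaturase, had 226 to 387 CPM (median 266) in leucine-free livers, against 1100.5, 833, 732, 995 and 983 CPM in control livers, without overlap (log2 fold change -1.72 ± 0.23, adjusted p = 4.17e-08). Acat2, at the entry, had 28.4 to 46.6 CPM in leucine-free livers, against 71.9 to 114 CPM in control livers (-1.40 ± 0.20, adjusted p = 1.17e-07). Sqle, squalene epoxidase, had 3.21 to 68.3 CPM in leucine-free livers, against 82.8 to 149 CPM in control livers (-1.9971 ± 0.64, adjusted p = 0.0191), and was not called in the 11 libraries alone (adjusted p = 0.0555).

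**Figure D3:**
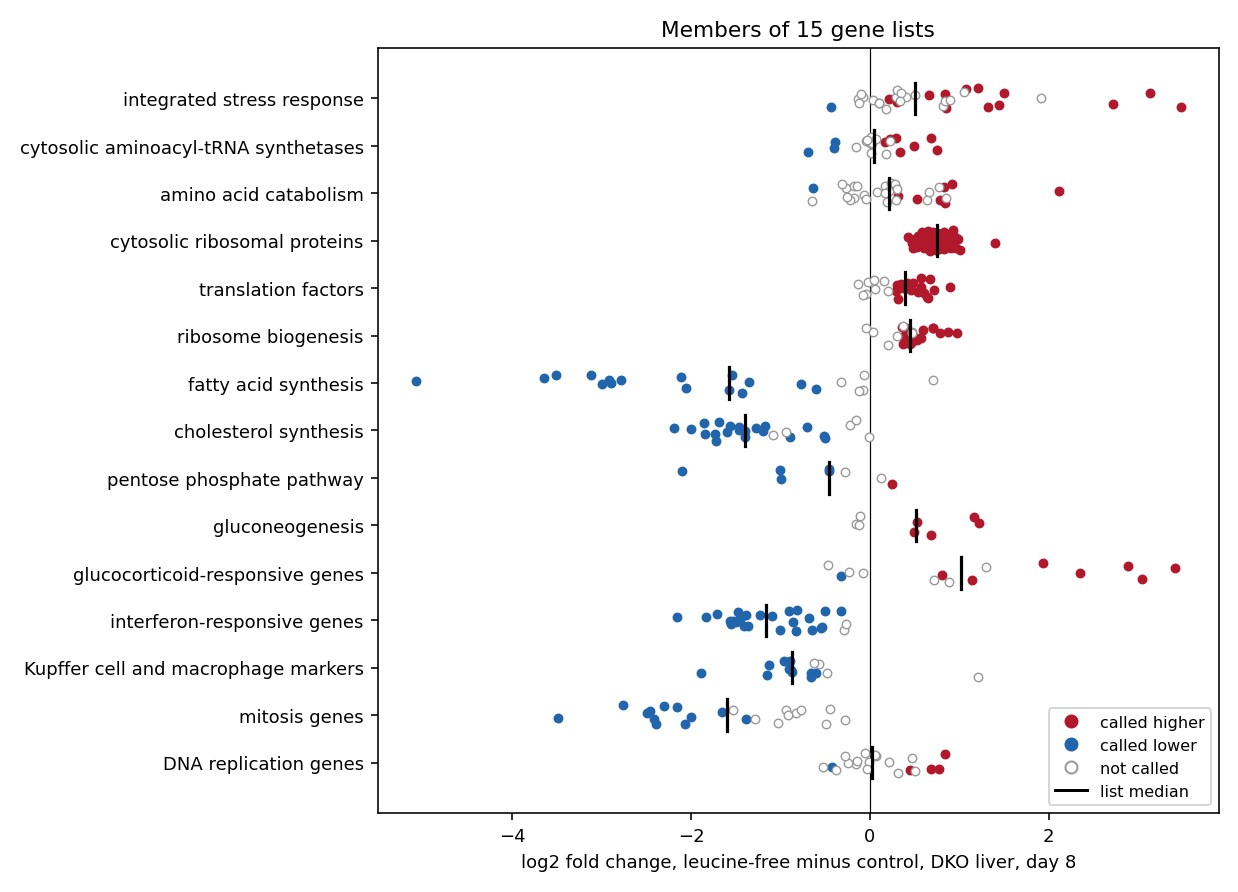
Each point is a gene tested, placed by its log2 fold change (leucine-free minus control, DKO, day 8) in 1 of 15 lists, filled where called at an adjusted p under 0.05 and open where not, and vertical bars are list medians. All 78 ribosomal protein genes lie right of 0, no fatty acid or cholesterol synthesis gene was called higher, and the stress response and synthetase lists spread to both sides.

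Removal of sterols and the handling of lipoproteins moved the other way in part. Abcg5 and Abcg8 form the pump that sends sterols into bile. Abcg8 had 141 to 403 CPM (median 182) in leucine-free livers, against 89.9, 123, 117, 126 and 90.8 CPM in control livers without overlap (log2 fold change 1.06 ± 0.23, adjusted p = 0.000334), and Abcg5 had 91.8 to 248 CPM in leucine-free livers, against 69.9 to 100.2 CPM in control livers (0.78 ± 0.18, adjusted p = 0.00109). Scarb1, which takes up cholesterol from high-density lipoprotein, had 239.9 to 511 CPM in leucine-free livers, against 170.5 to 222 CPM in control livers without overlap (0.90 ± 0.13, adjusted p = 3.74e-07). Apoc2, the cofactor of lipoprotein lipase, had 7.42 to 10.9 CPM in leucine-free livers, against 3.42 to 5.31 CPM in control livers (1.02 ± 0.21, adjusted p = 0.000205). Of 18 genes of apolipoproteins and lipoprotein handling 5 were higher, these among them, and 1, Pltp, was lower. Pltp, which transfers phospholipids, had 9.62 to 29.7 CPM (median 20.5) in leucine-free livers, against 113, 98.1, 62.9, 164 and 78.8 CPM in control livers (log2 fold change -2.37 ± 0.28, adjusted p = 1.2e-09). In bile acid synthesis Cyp8b1, the 12-alpha-hydroxylase, had 6.01 to 221 CPM in leucine-free livers, against 144 to 397 CPM in control livers (-1.66 ± 0.48, adjusted p = 0.00948), with a call not made in the 11 libraries alone (adjusted p = 0.157). Cyp7a1, the rate-limiting enzyme, had 12.1 to 163 CPM in leucine-free livers, against 16.6 to 58.1 CPM in control livers (1.34 ± 0.74, adjusted p = 0.208).

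Genes of fat use were called at shares near the background. Of 27 genes of fatty acid oxidation and PPAR alpha targets 3 were higher and 3 lower (11.1% each, median 0.03), and 0 or 1 was higher without mouse 1 or any 1 of control mice 1, 3 and 5. Cpt1a, which lets fatty acids into mitochondria, had 333 to 609.8 CPM in leucine-free livers, against 270.3 to 368 CPM in control livers (0.45 ± 0.19, adjusted p = 0.0817). Ppara, a nuclear receptor that drives fat use, had 70.6 to 132 CPM in leucine-free livers, against 112 to 117 CPM in control livers (-0.35 ± 0.17, adjusted p = 0.125). Neither was called, nor was Pdk4, which spares glucose (-0.75 ± 0.60, adjusted p = 0.401). Cpt1a was called without mouse 3 (adjusted p = 0.0455) and Ppara without mouse 1 (adjusted p = 0.0273). Cyp4a14, a fatty acid hydroxylase, was higher by 1.18, with a call that 7 of the 11 mice could end (adjusted p from 0.0572 to 0.133). Fabp1, the fatty acid binding protein of liver, was lower, with 471 to 1262 CPM in leucine-free livers, against 1894 to 2664 CPM in control livers and no overlap (-1.52 ± 0.28, adjusted p = 3.09e-05). Of 14 genes of fat uptake and lipid droplets 3 were higher and 1 lower (median 0.14, and -0.12 without mouse 6). Pnpla2, the triglyceride lipase ATGL, had 76.6 to 111 CPM (median 102) in leucine-free livers, against 53.9, 52.6, 55.3, 55.2 and 53.5 CPM in control livers (log2 fold change 0.83 ± 0.13, adjusted p = 1.76e-06). Plin5, which couples droplets to mitochondria, had 54.9 to 112 CPM in leucine-free livers, against 26.9 to 38.9 CPM in control livers (1.30 ± 0.25, adjusted p = 0.000104). Plin4 had 2.60 to 39.0 CPM in leucine-free livers, against 2.47 to 4.06 CPM in control livers (2.18 ± 0.62, adjusted p = 0.008) and was not called without mouse 5 (adjusted p = 0.0646). Mogat1, an acyltransferase of triglyceride synthesis, was the lower one (-1.94), at means of 0.0851 CPM in leucine-free livers and 0.351 CPM in control livers, and any 1 of 7 mice could end its call.

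Of 14 genes on a list of glucocorticoid-responsive genes, which includes the receptor Nr3c1, 7 were higher, with a median of 1.02. Nr3c1 was the 1 lower gene, though not in the 11 libraries alone. The other 6 were not called. The summed level of the 14 was 1873 to 4506 CPM in leucine-free livers, against 1302 to 2032 CPM in control livers, with overlap. Fkbp5, a chaperone of the receptor, had 114 to 158 CPM (median 135) in leucine-free livers, against 65.2, 98.2, 35.3, 57.9 and 50.2 CPM in control livers, without overlap (log2 fold change 1.15 ± 0.31, adjusted p = 0.00534). Zbtb16, a transcription factor, had 21.0 to 132 CPM in leucine-free livers, against 10.2 to 33.5 CPM in control livers (1.94 ± 0.51, adjusted p = 0.00402). Klf9, another, had 108 to 239.9 CPM in leucine-free livers, against 71.2 to 147 CPM in control livers (0.81 ± 0.23, adjusted p = 0.00708). Mice 1 and 6 were within the control range for Zbtb16, and mice 4 and 6 for Klf9. Per1, which is also a clock gene, had 5.57 to 95.3 CPM in leucine-free livers, against 2.34 to 19.6 CPM in control livers (2.35 ± 0.69, adjusted p = 0.0104), with mouse 6 again within the control range and no call in the 11 libraries alone (adjusted p = 0.0555). The metallothioneins Mt1 and Mt2, which bind zinc, rose by 2.89 ± 0.64 and 3.41 ± 0.84 (adjusted p = 0.000618 and 0.00204), and Mt2 had 327 to 845 CPM in leucine-free livers, against 18.4 to 72.4 CPM in control livers, without overlap. The 2 are near copies, and reads may be split between them. The clock genes Dbp, Nr1d1 and Arntl were not called (adjusted p = 0.128, 0.577 and 0.126), and 1 gene of the 19 on the clock list was higher and 1 lower, the last with a call that 6 of the 11 mice could end.

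Of 8 gluconeogenesis genes 5 were higher and none lower, with 2 higher in the 11 libraries alone and 3 without mouse 5. Pck1, its rate-limiting enzyme, had 1497 to 5561 CPM (median 3224) in leucine-free livers, against 1697, 1971, 1192, 1027 and 871 CPM in control livers (log2 fold change 1.22 ± 0.36, adjusted p = 0.0101). Mice 2 and 6 were within the control range. Crtc2, a coactivator, had 48.2 to 67 CPM in leucine-free livers, against 38.1 to 41.4 CPM in control livers without overlap (0.53 ± 0.09, adjusted p = 9.56e-06). Ppargc1a and Foxo1, which drive Pck1, were higher by 1.17 ± 0.34 and 0.68 ± 0.20 (adjusted p = 0.00935 and 0.0102). Both lost their call in the 11 libraries alone and without mouse 5 (adjusted p = 0.120 and 0.112). G6pc, which releases glucose, had 136 to 527 CPM in leucine-free livers, against 229 to 351 CPM in control livers (-0.16 ± 0.40, adjusted p = 0.828).

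Genes of the growth hormone axis fell in part, 4 of 15, and 3 rose. Ghr, its receptor, had 114 to 282 CPM (median 211) in leucine-free livers, against 436, 438, 429, 416 and 450.1 CPM in control livers, without overlap (log2 fold change -1.03 ± 0.14, adjusted p = 7.38e-08). Igf1, the growth factor it induces, had 152 to 359 CPM in leucine-free livers, against 377 to 634 CPM in control livers (-0.84 ± 0.17, adjusted p = 0.00025). Igfals, which stabilises IGF1 in blood, had 30.4 to 107 CPM in leucine-free livers, against 107 to 148 CPM in control livers (-0.86 ± 0.22, adjusted p = 0.00345), with no call in the 11 libraries alone (adjusted p = 0.0587). Each of these 3 genes acts to raise or keep IGF1. Binding proteins of IGF1 split. Igfbp2 had 775 to 1382 CPM in leucine-free livers, against 311 to 487 CPM in control livers, without overlap (1.35 ± 0.29, adjusted p = 0.000485). Igfbp4 rose by 0.56 ± 0.10 (adjusted p = 2.29e-05). Igfbp1, which insulin is known to repress, had 118 to 705 CPM in leucine-free livers, against 11.3 to 137 CPM in control livers (2.34 ± 0.76, adjusted p = 0.0217). Igfbp3, the main carrier in blood, was lower, with 7.87 to 24.8 CPM in leucine-free livers, against 21.1 to 41.1 CPM in control livers (-1.14 ± 0.31, adjusted p = 0.0046). Igfbp1 was not called without control mouse 3 or 5 (adjusted p = 0.0655 and 0.0625). Socs2, a target of growth hormone, had 12.2 to 127 CPM in leucine-free livers, against 40.4 to 122 CPM in control livers (0.02 ± 0.61, adjusted p = 0.986), and mouse 6 was the lowest of all 11.

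Several major urinary proteins and a few male-biased liver genes were lower. Mup3, a pheromone carrier secreted by liver, had 19.8 to 186 CPM (median 77.1) in leucine-free livers, against 2677, 1822, 2476, 1471 and 3495 CPM in control livers. The leucine-free livers were more than 5-fold below the lowest control liver, and the log2 fold change was -4.65 ± 0.41, adjusted p = 3.33e-13. Mup17, Mup18 and Mup15 were lower by 3.44, 2.28 and 3.55 on the log2 scale, with calls not made in the 11 libraries alone (adjusted p = 0.0652, 0.163 and 0.0611), and reads may be split among copies of this family. Without mouse 2 they were -5.10, -3.06 and -5.10, and without mouse 4 Mup18 was -2.89. Slco1a1, an anion transporter higher in male livers, had 0.269 to 1.44 CPM (median 0.722) in leucine-free livers, against 18.4, 1.46, 43.8, 0.711 and 98.7 CPM in control livers (-5.47 ± 1.04, adjusted p = 6.36e-05, and -4.47 without control mouse 5), so that 1 control mouse was within the leucine-free range. Of 11 male-biased genes 3 were lower (27.3%) and none higher. Of 15 female-biased genes 1 was higher (6.67%) and 2 were lower (13.3%), shares near the background. As mice were left out in turn, 0 or 1 of the female-biased genes was higher and 1 or 2 were lower. Most members of both lists were not called.

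Drug-metabolising enzymes held calls in both directions. Of 35 cytochrome P450 genes and their partners 7 were higher and 5 lower, with 4 higher in the 11 libraries alone and without mouse 3, control mouse 1 or control mouse 3. Por, the reductase that feeds electrons to all of them, had 462 to 817 CPM (median 694) in leucine-free livers, against 198, 264, 194, 232 and 199 CPM in control livers, without overlap (log2 fold change 1.61 ± 0.25, adjusted p = 1.05e-06). Cyp3a13 and Cyp3a25, which oxidise steroids and drugs, rose by 1.14 ± 0.23 and 1.19 ± 0.26 (adjusted p = 0.00017 and 0.000588). Cyp2j5, an epoxygenase, fell by 0.88 ± 0.10 (adjusted p = 1.73e-10). Cyp2f2, an enzyme of periportal hepatocytes, had 162 to 469.6 CPM in leucine-free livers, against 569 to 805 CPM in control livers, without overlap (-1.28 ± 0.21, adjusted p = 5.57e-06). Of 35 glutathione, glucuronide and sulfate transferases 4 were higher (11.4%, near the background) and 8 lower (22.9%). Sult2a8, a sulfotransferase, had 15.3 to 146 CPM in leucine-free livers, against 232 to 545 CPM in control livers (-2.11 ± 0.34, adjusted p = 3.04e-06). Ugt2b1, a glucuronosyltransferase, fell by 1.47 ± 0.20 and Mgst1, a membrane glutathione transferase, by 0.70 ± 0.11 (adjusted p = 8.9e-08 and 4.45e-06). All 3 were lower without overlap. Gstp1, a glutathione transferase, was higher (0.91 ± 0.23, adjusted p = 0.00272). Nudt7, a peroxisomal coenzyme A hydrolase, had 47.1 to 82.5 CPM in leucine-free livers, against 183 to 402 CPM in control livers (-2.02 ± 0.35, adjusted p = 1.24e-05).

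Among plasma proteins of the acute phase, which the liver makes in inflammation, 5 of 21 were higher and none lower, and 3 were higher without control mouse 5. Apcs, serum amyloid P, had 362 to 849 CPM in leucine-free livers, against 132 to 197 CPM in control livers, without overlap (1.73 ± 0.43, adjusted p = 0.00227). Lbp, which binds endotoxin, and Hp, haptoglobin, rose by 0.99 ± 0.23 and 0.92 ± 0.30 (adjusted p = 0.00105 and 0.022). Hp was not called without control mouse 5 (adjusted p = 0.0561).

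Other secreted and cell maintenance genes held calls in both directions. Of 31 complement and coagulation proteins 3 were higher (9.68%, near the background) and 5 lower (16.1%), with 3 lower without control mouse 5. C9, which completes the membrane attack pore, had 51.2 to 185 CPM (median 85.0) in leucine-free livers, against 272, 287, 288, 243 and 390.5 CPM in control livers, without overlap (log2 fold change -1.57 ± 0.30, adjusted p = 5.59e-05). C8g, of the same pore, and Mbl1, a mannose-binding lectin that starts the cascade, fell by 0.62 ± 0.13 and 0.62 ± 0.14, while C3, its central protein, rose by 0.69 ± 0.14 (adjusted p = 0.000361, 0.000712 and 0.000177). Of 28 genes of lysosomes and autophagy 4 were higher (14.3%) and 2 lower (7.14%), shares near the background, with a median of -0.04. Ctsl, a lysosomal protease, had 791 to 4217 CPM (median 1799) in leucine-free livers, against 782, 649.9, 723, 882 and 782 CPM in control livers, with mouse 1 within the control range (log2 fold change 1.47 ± 0.25, adjusted p = 9.76e-06). Map1lc3a and Map1lc3b, which coat autophagosomes, rose by 0.77 ± 0.15 and 0.55 ± 0.10, while Ctsd, another protease, and Atp6v1a, of the proton pump, fell by 0.36 ± 0.08 and 0.38 ± 0.07 (adjusted p = 8.68e-05, 2.37e-05, 0.000723 and 8.89e-06). Of 24 chaperones and unfolded protein response genes of the endoplasmic reticulum 1 was called, Derl2, which was lower (-0.74 ± 0.10, adjusted p = 1.12e-07). Of 12 cytosolic heat shock proteins 3 were higher, Hspa8 by 0.65 ± 0.18 (adjusted p = 0.00721), and 1 was higher without mouse 6, control mouse 3 or control mouse 4. Gadd45b, a stress gene on the list of p53 targets, had 3.11 to 16.5 CPM in leucine-free livers, against 1.35 to 1.94 CPM in control livers (2.12 ± 0.58, adjusted p = 0.00554).

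Genes that interferon is known to induce fell almost as a whole. Of 28 tested 26 were lower and none was higher, with a median of -1.16, and their summed level was 461 to 607 CPM in leucine-free livers, against 821 to 962 CPM in control livers. Ifit1, which binds viral RNA, had 2.31 to 4.96 CPM (median 3.35) in leucine-free livers, against 15.2, 13.0, 19.6, 16.4 and 13.7 CPM in control livers. Ifit3, its partner, had 2.51 to 8.48 CPM in leucine-free livers, against 19.4 to 27.3 CPM in control livers, and Isg15, a ubiquitin-like modifier, had 2.20 to 7.74 CPM in leucine-free livers, against 11.8 to 18.6 CPM in control livers. The groups overlapped for none of the 3, and the log2 fold changes were -2.16 ± 0.31, adjusted p = 2.65e-07 for Ifit1, -1.83 ± 0.24, adjusted p = 3.72e-08 for Ifit3 and -1.45 ± 0.27, adjusted p = 4.13e-05 for Isg15. Irf7, which amplifies interferon production, had 15.7 to 32.3 CPM in leucine-free livers, against 56.4 to 69.5 CPM in control livers (-1.37 ± 0.18, adjusted p = 3.73e-08). Oas2 and Ifit2, antiviral effectors, fell by 1.48 ± 0.21 and 1.71 ± 0.24 (adjusted p = 1.11e-07 and 1.89e-07). In antigen presentation 5 of 12 class I genes were lower, among them B2m, the light chain, with 788 to 1121 CPM in leucine-free livers, against 1128 to 1300.2 CPM in control livers (-0.32 ± 0.08, adjusted p = 0.00167, with adjusted p = 0.0583 in the 11 libraries alone). Of the 12, 2 were lower without mouse 1, mouse 6 or control mouse 3, and 3 in the 11 libraries alone or without mouse 2, control mouse 1 or control mouse 2.

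The promoters of Ifit1, Ifit3 and Isg15 are shown because these genes fell together and hold the core of the interferon-stimulated response element, searched as GAAA, 2 bases of any kind and GAAA again, on both strands in the same window of RefSeq, GRCm38.p6. Capitals mark matches in either orientation. Ifit1 (chr19:34640639-34640938, plus strand) has 2, which begin at -104 and -85 from the gene's start. Ifit3 (chr19:34583279-34583578, plus strand) has 2, at -156 and -122. Isg15 (chr4:156200769-156201068, minus strand) has 3 that overlap, at -78, -72 and -66.
Ifit1: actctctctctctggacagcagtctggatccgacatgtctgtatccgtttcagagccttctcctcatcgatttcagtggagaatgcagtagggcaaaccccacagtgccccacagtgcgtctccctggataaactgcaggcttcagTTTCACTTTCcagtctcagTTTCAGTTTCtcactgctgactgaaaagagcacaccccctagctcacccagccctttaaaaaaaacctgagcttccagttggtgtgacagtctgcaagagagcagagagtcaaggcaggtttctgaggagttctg
Ifit3: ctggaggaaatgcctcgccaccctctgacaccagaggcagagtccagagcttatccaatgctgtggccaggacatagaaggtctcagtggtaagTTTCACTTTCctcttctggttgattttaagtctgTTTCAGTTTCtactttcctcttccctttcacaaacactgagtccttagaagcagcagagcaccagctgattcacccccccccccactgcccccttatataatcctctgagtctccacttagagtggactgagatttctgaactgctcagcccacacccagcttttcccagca
Isg15: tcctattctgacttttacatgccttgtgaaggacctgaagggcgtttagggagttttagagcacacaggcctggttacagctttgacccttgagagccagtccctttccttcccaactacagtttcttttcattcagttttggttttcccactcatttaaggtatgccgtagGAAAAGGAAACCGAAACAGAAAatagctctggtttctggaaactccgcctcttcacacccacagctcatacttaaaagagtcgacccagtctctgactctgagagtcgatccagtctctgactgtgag
The letters are in the promoters of 1079 of 27025 genes (3.99%) and of 12 of the 20 interferon-responsive genes with an entry. A sterol regulatory element, searched as TCACNCCAC, was found in 1 of 17 fatty acid synthesis genes and 1 of 17 cholesterol synthesis genes with an entry, against 388 of 27025 (1.44%), and says nothing of sites outside this window.

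Markers of liver macrophages were lower beside the interferon genes. Of 15 markers of Kupffer cells and macrophages 11 were lower and none was higher, with a median of -0.87, and 6 were lower in the 11 libraries alone. Without 1 mouse, 5 to 7 were lower for 7 of the 11 mice, the fewest without mouse 1. Their summed level was 254 to 954 CPM in leucine-free livers, against 912 to 1191 CPM in control livers, so that mouse 6 lay within the control range and mouse 1 far below it. Mouse 1 was also the lowest leucine-free liver in the summed endothelial, stellate cell, lymphocyte and dendritic cell markers. In bulk liver, fewer cells of a type and less RNA per cell cannot be told apart. Clec4f, a lectin of Kupffer cells, had 50.5 to 139 CPM (median 111) in leucine-free livers, against 192, 199.6, 226, 243 and 179.6 CPM in control livers, without overlap (log2 fold change -0.96 ± 0.22, adjusted p = 0.00108). Timd4, a receptor for dying cells on resident Kupffer cells, had 2.31 to 7.76 CPM in leucine-free livers, against 11.0 to 15.4 CPM in control livers (-1.15 ± 0.26, adjusted p = 0.000773). Folr2, a folate receptor, had 2.76 to 8.73 CPM in leucine-free livers, against 17.9 to 31.2 CPM in control livers (-1.89 ± 0.25, adjusted p = 2.02e-08). Csf1r, the growth factor receptor of macrophages, had 23.6 to 89.9 CPM in leucine-free livers, against 86.7 to 122 CPM in control livers (-0.89 ± 0.27, adjusted p = 0.0137). Cd5l, which they secrete, had 25.4 to 146 CPM in leucine-free livers, against 140.1 to 200.3 CPM in control livers (-1.13 ± 0.31, adjusted p = 0.0055). Vsig4, a complement receptor, fell by 0.88 and lost its call in the 11 libraries alone and without mouse 1 (adjusted p = 0.0519). Marco, a scavenger receptor, was not called, with 6.76 to 78.1 CPM in leucine-free livers, against 6.32 to 14.0 CPM in control livers (1.21 ± 0.55, adjusted p = 0.11), and mouse 6 was the highest. The part of this fall in that of the interferon genes was not tested.

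Among markers of other cell types none of 15 endothelial, 15 lymphocyte and 8 neutrophil markers was called. Up to 2 endothelial and 2 lymphocyte markers were called lower as mice were left out in turn. Of 15 stellate cell markers 3 were lower and 1 higher, and 6 were lower without mouse 6. Col3a1 and Col1a2, fibrillar collagens, fell by 1.58 ± 0.29 and 0.74 ± 0.24 (adjusted p = 2.8e-05 and 0.0193), and Col14a1 fell by 0.93 ± 0.25 (adjusted p = 0.00513). Col1a2 was not called without mouse 1 or control mouse 3 or 5 (adjusted p from 0.0569 to 0.0817). Hand2, a transcription factor of these cells, had 10.0 to 19.8 CPM in leucine-free livers, against 7.23 to 10.7 CPM in control livers (0.81 ± 0.20, adjusted p = 0.00216). Of 8 cholangiocyte markers 4 were lower, of 6 dendritic cell markers 2, Siglech (-2.13, and -2.84 without mouse 6) and Xcr1, and of 6 erythroid markers 3, among them Alas2, of heme synthesis (-1.28 ± 0.27, adjusted p = 0.000361). The cholangiocyte count was 1 without mouse 2, mouse 6 or control mouse 1 and 2 without mouse 5, control mouse 3 or control mouse 5. The erythroid count was 1 in the 11 libraries alone and without control mouse 1, and 5 without mouse 3. Of 11 hepatocyte markers Ahsg and Serpina1a were higher, a call that 9 of the 11 mice could end for Serpina1a (adjusted p from 0.0603 to 0.116), and Ttr was lower, the last not in the 11 libraries alone. Alb, albumin, had 56530.3 to 96015 CPM in leucine-free livers, against 60779 to 91528 CPM in control livers (-0.20 ± 0.15, adjusted p = 0.377). Cela1, the 1 exocrine pancreas marker with enough counts to test, was lower (-0.98 ± 0.23, adjusted p = 0.00103). Of adipocyte markers Plin1, Lep and Cfd, and of exocrine pancreas Prss2, had no counts in any of the 11 libraries.

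Genes of mitosis were lower in part, and a few genes of DNA replication were higher. Of 22 mitosis genes 12 were lower and none higher, with a median of -1.60, at low levels throughout, and 7 were lower without control mouse 3. Mki67, the proliferation marker, had 0.254 to 1.23 CPM (median 0.879) in leucine-free livers, against 4.19, 2.96, 5.63, 6.04 and 4.47 CPM in control livers, without overlap (log2 fold change -2.49 ± 0.44, adjusted p = 2.1e-05). Top2a, topoisomerase II alpha, had 0.174 to 0.949 CPM in leucine-free livers, against 1.65 to 2.72 CPM in control livers (-2.16 ± 0.48, adjusted p = 0.000523). Aurkb, a mitotic kinase, had 0 to 0.224 CPM in leucine-free livers, against 0.291 to 0.768 CPM in control livers (-2.41 ± 0.55, adjusted p = 0.000672). Of 20 DNA replication genes 4 were higher and 1 was lower, with a median of 0.02, and 2 were higher without mouse 1 or control mouse 4. Mcm7, of the replicative helicase, had 17.9 to 36.7 CPM in leucine-free livers, against 13.6 to 17.5 CPM in control livers, without overlap (0.77 ± 0.14, adjusted p = 3.58e-05), and Pola1, a polymerase subunit, fell by 0.42, with a call that 4 of the 11 mice could end (adjusted p from 0.0508 to 0.0797). Of 18 genes on the list of G1 cyclins, Myc and p53 targets 2 were higher (11.1%, the background share) and 3 lower (16.7%). Among D-type cyclins, which start the cycle, Ccnd2 had 4.06 to 7.35 CPM in leucine-free livers, against 9.69 to 11.6 CPM in control livers (-0.92 ± 0.16, adjusted p = 1.99e-05). Ccnd1 had 7.89 to 16.5 CPM in leucine-free mice 1 to 5 and 75.5 CPM in mouse 6, against 38.1, 70.3, 88.8, 64.6 and 50.5 CPM in control livers (-1.54 ± 0.46, adjusted p = 0.0109, and -2.55 without mouse 6), so that mouse 6 was within the control range, with no call in the 11 libraries alone. Trp53inp1, a target of p53 like Cdkn1a, was higher, with 62.0 to 133 CPM in leucine-free livers, against 31.6 to 48.8 CPM in control livers (1.19 ± 0.30, adjusted p = 0.00306).

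Whether the DKO livers responded to the diet as WT livers did was tested at day 8 as the difference of the 2 responses. WT livers had 402 higher and 486 lower genes between diets (2.38% and 2.87%, in all 5.25% of genes), and 304 higher and 355 lower genes were called in both genotypes, 16.2% and 22.1% of the DKO calls and 75.6% and 73.0% of the WT calls. The 2 responses share no library. A difference of the responses was called for 7 genes (0.0414%), 3 more positive (0.0177%) and 4 more negative (0.0237%) in DKO, while 1506 had an unadjusted p under 0.05. The other tools gave more, 60 with DESeq2 and 89 with limma-voom, and leaving out 1 mouse of day 8 gave 0 to 38, so the 7 are uncertain.

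Of the 7, 6 bear a name other than that of a predicted gene. The other, Gm3776, is named here after its value was seen, and its response was more positive in DKO. Gfra1, a receptor for the neurotrophic factor GDNF, had 233 to 348 CPM (median 277) in leucine-free livers, against 126, 143, 122, 123 and 127 CPM in control livers, while WT livers had 140.0 to 205 CPM (median 168) on leucine-free food, against 123 to 202 CPM on control food. The log2 response was 1.13 in DKO and 0.05 in WT livers, a difference of 1.09 ± 0.22, adjusted p = 0.0388. Rdh16, a retinol dehydrogenase, had 14.4 to 88.7 CPM in leucine-free livers, against 208 to 334 CPM in control livers, while WT livers had 87.3 to 113 CPM (median 99.4) on leucine-free food, against 82.8 to 165 CPM on control food (difference -1.89 ± 0.37, adjusted p = 0.0388). Eif4ebp3, described above, had 1.34 to 3.24 CPM (median 2.29) on leucine-free food, against 0.963 to 4.29 CPM on control food in WT livers (difference 2.97 ± 0.63, adjusted p = 0.0433). Pgrmc2, a heme-binding membrane protein, had 53.9 to 82.1 CPM in leucine-free livers, against 78.7 to 121 CPM in control livers, while WT livers had 62.6 to 96.8 CPM (median 73.5) on leucine-free food, against 65.3 to 81.5 CPM on control food (difference -0.75 ± 0.16, adjusted p = 0.0433). Muc1, a mucin of bile ducts, and Raet1e, a ligand of a natural killer cell receptor, were lower by 1.50 and 1.53 in DKO livers and stood at 0.73 and 1.24 in WT livers (differences -2.22 ± 0.47, adjusted p = 0.0433, and -2.77 ± 0.60, adjusted p = 0.0454). Each of these 6 differences lost its call when 1 mouse was left out, for 6 of the 22 mice of day 8 in Rdh16, 7 in Gfra1 and 11 to 13 in the others. With no filter none of the 6 was called, and with DESeq2 Eif4ebp3, Muc1 and Raet1e were not. Of the 6, only Gfra1 was called in the 22 libraries of day 8 alone or with the mouse number as a block. Among genes described earlier, the response of DKO livers was not shown to differ for Asns (DKO 3.48, WT 1.64, difference adjusted p = 0.685), Trib3 (DKO 3.13, WT 1.40, 0.488), Rps6 (DKO 0.93, WT 0.46, 0.094), Acly (DKO -2.79, WT -1.45, 0.189), Mup3 (DKO -4.65, WT -2.67, 0.12) and Ifit1 (DKO -2.16, WT -1.79, 0.9).

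**Figure D4:**
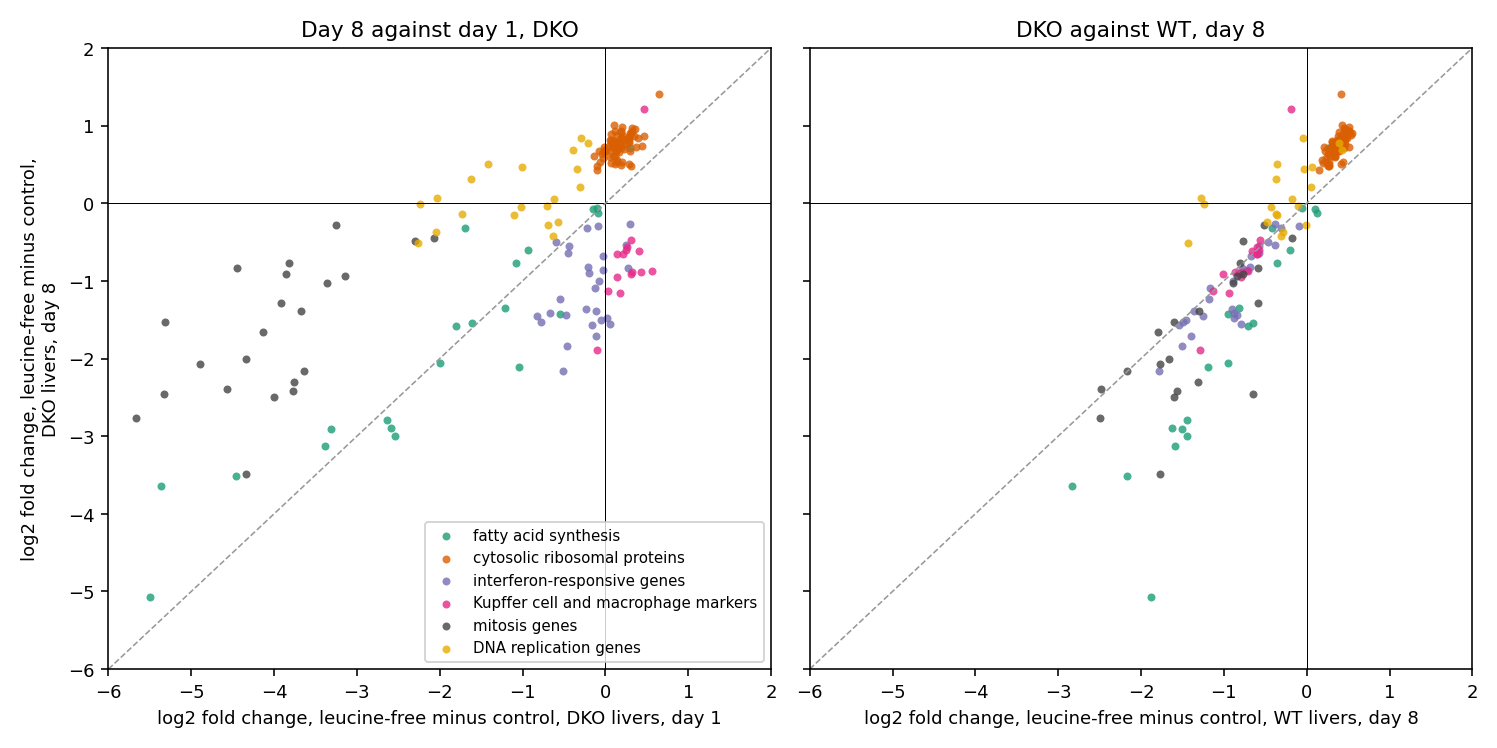
Each point is a gene of 1 of 6 lists, with its log2 fold change in DKO livers at day 8 on the vertical axis and that in DKO livers at day 1 (left) or WT livers at day 8 (right) on the horizontal axis, and the dashed line marks equal values. Mitosis and DNA replication genes lie mostly above the line against day 1 and interferon and macrophage genes mostly below it, while ribosomal protein genes lie mostly above the line in both panels.

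How the DKO response changed between day 1 and day 8 was tested in the same way. The difference was called for 1494 genes (8.84%), 894 with a more positive and 600 with a more negative log2 response at day 8. Of the day 8 calls, 633 higher and 719 lower genes had the same call at day 1 (33.8% and 44.7% of the day 8 calls, 35.7% and 32.6% of the day 1 calls), and 71 had the opposite one. The controls of the 2 days are different mice, and both enter the difference. Leucine-free mouse 1 of day 1 held no Xist counts, unlike every other library of the study, and no Y-linked counts, and without it 1458 differences were called. Without leucine-free mouse 6 of day 8 the counts of list members below were 70 ribosomal protein genes, 7 synthetases, 10 mitosis and 16 DNA replication genes more positive, and 14 interferon-responsive, 13 macrophage and 6 MHC class II genes more negative.

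The ribosomal protein rise was larger at day 8. The response of 74 of 78 was more positive than at day 1 (5.29% of all genes were), with a median difference of 0.60. Rpl8 differed by 0.70 ± 0.10 (adjusted p = 2.71e-06) and Rpl27, another of the large subunit, by 0.75 ± 0.11 (adjusted p = 2.33e-06). The summed level at day 1 was 12996 to 18003 CPM in leucine-free livers, against 12532 to 15126 CPM in control livers, with overlap. The tRNA synthetases moved between the days as well. At day 8 7 of 20 were higher and 3 lower, against none higher and 12 lower at day 1, and 7 had a more positive response at day 8, Sars by 0.72 ± 0.15 (adjusted p = 0.000677) and Vars by 0.71 ± 0.11 (adjusted p = 1.83e-05). The stress response list held 12 of 33 genes higher and 2 lower at day 1 (median 0.38), where 10.5% and 13% of all genes were. At day 8 these counts were 13 and 1 (median 0.50). The response was more positive at day 8 for 3 of the 33 and more negative for 1 (2 and 1 without mouse 6). Asns and Psat1 were not called at day 1 (0.33 and 0.69). Their responses differed by 3.14 ± 0.85 (adjusted p = 0.0122) for Asns and 2.03 ± 0.61 (adjusted p = 0.0243) for Psat1. The difference of Psat1 was 1.25 (adjusted p = 0.178) without mouse 6, and it was not called without control mouse 1 or 5. Fgf21 went the other way. It had 3.82 to 143 CPM (median 30.9) on leucine-free food, against 0.766 to 14.2 CPM on control food at day 1, and its response at day 8 was lower by 3.39 ± 0.89 (adjusted p = 0.00972).

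Interferon-responsive and macrophage genes were lower at day 8 than at day 1 relative to their controls. The response of 16 of 28 interferon-responsive and 9 of 15 macrophage genes was more negative (3.55% of all genes were). Ifit1 differed by -1.65 ± 0.38 (adjusted p = 0.00249), Irf7 by -1.14 ± 0.22 (adjusted p = 0.000387), Folr2 by -1.78 ± 0.30 (adjusted p = 3.79e-05) and Clec4f by -1.09 ± 0.27 (adjusted p = 0.0064). Macrophage markers summed to 473 to 1349.8 CPM in leucine-free livers of day 1, against 526 to 1082 CPM in their controls. Of 7 MHC class II genes 6 had a more negative response at day 8. At day 1, 3 of them were higher (median 0.58). None was called at day 8 itself (median -0.63), though 3 were lower without leucine-free mouse 6 and up to 4 as mice were left out in turn. Mup3 differed by -3.82 ± 0.47 (adjusted p = 1.13e-07) and Rdh16 by -1.91 ± 0.32 (adjusted p = 3.54e-05).

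Mitosis genes had a smaller fall at day 8 than at day 1, and 1 of 20 DNA replication genes was lower at day 8, against 17 at day 1. The response of 13 of 22 mitosis and 17 of those DNA replication genes was more positive at day 8. That of Ccnd2 was more negative (-0.75 ± 0.20 (adjusted p = 0.0105)). Mitosis genes summed to 5.86 to 11.6 CPM in leucine-free livers of day 8, against 16.2 to 28.1 CPM in their controls, and to 6.62 to 20.05 CPM in leucine-free livers of day 1, against 54.0 to 344 CPM in their controls. The leucine-free groups of the 2 days thus overlapped and the controls did not. Cdca3, a trigger of mitotic entry, was not called at day 8 (0.01 ± 0.30, adjusted p = 0.988) and differed by 3.12 ± 0.35 (adjusted p = 1.25e-08) from day 1. Ncapd2, of condensin, Tacc3, of the spindle, and Stmn1, which destabilises microtubules, differed by 1.59 ± 0.21 (adjusted p = 3.34e-07), 2.00 ± 0.26 (adjusted p = 3.34e-07) and 2.56 ± 0.36 (adjusted p = 2.33e-06). Hmgn5, a nucleosome-binding protein, was higher at day 8 (0.43) and lower at day 1 (-0.43; difference 0.86 ± 0.12 (adjusted p = 2.32e-06)). Gsta1, a glutathione transferase with near copies, differed by 7.12 ± 0.91 (adjusted p = 5.4e-08), but 5.82 CPM in mouse 6 against 0 to 0.101 CPM in the other leucine-free livers set its value at day 8, and without mouse 6 the difference was 2.77 (adjusted p = 0.304). No difference between the days was called for Fasn (0.40 ± 0.44 (adjusted p = 0.635)) or Acly (-0.15 ± 0.35 (adjusted p = 0.849)), while the response of Srebf1 was less negative at day 8 by 1.38 ± 0.35 (adjusted p = 0.00716).

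The spread among the 6 leucine-free livers was widest for genes of a few families. By the SD of log2 CPM, Cyp3a16, Vmn2r3, Mup17, Mup18 and Sult2a7 were among those that varied most. Cyp3a16 and Sult2a7, members of families with near copies, had no counts in mouse 6, against 10.7 to 373 CPM and 2.02 to 29.6 CPM in the other leucine-free mice and 30.5 to 395 and 6.19 to 35.6 CPM in control livers. Of 9716 genes with a mean of at least 5 CPM, mouse 6 had 34 more than 2 log2 units above and 84 more than 2 log2 units below the mean of the other 5 leucine-free mice. In each of those 5 mice such genes numbered 5 to 17 above and 4 to 22 below. Leucine-free mice 1 and 6 were at opposite ends for several genes, with mouse 1 lowest in Asns, Psat1 and the macrophage markers and mouse 6 highest in Asns, Psat1 and Trib3. Among leucine-free livers mouse 1 was also lowest in the summed endothelial (613 CPM) and stellate cell markers (434 CPM). It was lowest too in those of lymphocytes (6.40 CPM) and dendritic cells (8.21 CPM), but not in those of cholangiocytes, neutrophils and erythroid cells.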

How the data were processed

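Whole-liver RNA was sequenced, and the authors deposited a table of raw read counts per gene for each library. STAR 2.7.1a, featureCounts 2.0.1 and DESeq2 1.26.0 are named with the builds GRCm38 and mm10 per the submitters' processing notes, and whether counting used strand was not stated. The 67 libraries fall into 8 groups by genotype, diet and day. Gene symbols came from GENCODE M21 (GRCm38) by identifier.

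Genes with enough counts in the smallest group (filterByExpr, 16908 of 55450) were tested with edgeR 4.0.16 (R 4.3.3), in 1 quasi-likelihood model of all 67 libraries with TMM scaling, and p-values were adjusted by Benjamini and Hochberg over these genes. A gene is called at an adjusted p under 0.05. The differences of responses between genotypes and between days are contrasts of the same model, and an SE is the log2 value divided by the square root of its F statistic. The steps were tested on simulated data with known changes. Alternatives were DESeq2 1.42.0, limma-voom (limma 3.58.1), other scaling and filters, fewer libraries, the mouse number as a block, and each library left out in turn. The older edgeR dispersion and the fit without 1 library of day 1 were added after seeing the data. No replicate libraries were alike enough to count as 1 (lowest chi-square per degree of freedom 23.8). Reads carry no molecular identifiers as far as the labels say. The SEs come from the model and include the spread between mice.

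Genes are named by these rules: a set of pathway genes and markers; the 12 largest rises and 12 largest falls at a mean of at least 5 CPM; of each list every member up to 15, otherwise the 5 with the smallest adjusted p and members that go against the others; the 8 strongest differences between responses; and the 6 most variable genes. Predicted genes were left out, and some genes that the rules allow are given only in counts. A few genes that the rules name are not reported here. Members and lists were chosen with earlier results of these data known. Same-numbered mice did not deviate together between the diets (correlations of 5 pairs from -0.0990 to 0.0679), so the numbers were not taken to pair them.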

Additional observations from a re-analysis of the deposited data

Results flagged for a closer look

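Of 420 groups of values (the leucine-free and the control livers for each gene described), 27 held 1 liver whose gap to the nearest other liver on the log2 scale passed Dixon's limit. Chance gives about 1 in 20, and the total is near that share. Of the 27, 23 were in leucine-free livers and 4 in control livers, and 15 were leucine-free mouse 6. Values in brackets are CPM, the liver that stood apart first and the range of the others of its group after it. Mouse 6 was far above the other leucine-free livers in Nupr1 (34.1, against 2.55 to 5.84), Sars (199, against 81.5 to 102), Vars (76.2, against 38.5 to 49.5) and Slc1a5 (10.7, against 6.11 to 7.46). It also stood above them in Rps19 (257, against 143 to 173), Ccnd1 (75.5, against 7.89 to 16.5), Gsta1 (5.82, against 0 to 0.101) and Ncl (451, against 199 to 249). Mouse 6 was far below them in Slc16a10 (99.1, against 174 to 227), Haao (216, against 422 to 537), Otc (266, against 378 to 413) and Aqp8 (9.67, against 23.8 to 38.4). It was below them too in Sult2a8 (15.3, against 63.0 to 146), Mgst1 (629, against 991 to 1176) and Serpina1a (777, against 1229 to 1379.8). Leucine-free mouse 1 was far below the others in Cyp7a1 (12.1, against 73.8 to 163), Ifit3 (2.51, against 5.50 to 8.48), Folr2 (2.76, against 6.09 to 8.73), Clec4f (50.5, against 97.6 to 139), Vsig4 (10.2, against 25.6 to 41.7) and Xcr1 (0.0564, against 0.179 to 0.243). It was above them in Pdk4 (31.9, against 13.9 to 17.8). Leucine-free mouse 5 was far below the others in Igfbp1 (118, against 417 to 705). Among control livers the mouse that stood apart was mouse 4, highest in Eif4ebp3 (3.47, against 1.85 to 2.02), mouse 3, lowest in Pdk4 (5.43, against 30.4 to 60.1), mouse 2, highest in Gfra1 (143, against 122 to 127) and mouse 2, highest in Map1lc3a (35.5, against 27.1 to 28.9). No cause of these values was tested.

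The response to the diet was called different between genotypes at day 8, by the test of the difference itself, for Eif4ebp3 (2.97), Muc1 (-2.22), Raet1e (-2.77), Rdh16 (-1.89), Gfra1 (1.09) and Pgrmc2 (-0.75), given as the DKO minus the WT log2 response. The DKO response differed between the days for the genes that follow, each given as the log2 response at day 8 minus that at day 1. Among genes of ribosomal proteins and the nucleolus it was more positive in Rps6 (0.61), Rpl3 (0.68), Rpl8 (0.70), Rpl14 (0.78), Rps19 (0.81), Rpl27 (0.75), Rpl13a (0.76), Rpl15 (0.53), Npm1 (0.47) and Ncl (0.62). Among genes of tRNA loading, amino acids and stress it was more positive in Asns (3.14), Psat1 (2.03), Sars (0.72), Eprs (0.70), Vars (0.71), Qars (0.35), Gars (0.59), Slc1a5 (0.91) and Sdsl (0.86) and more negative in Fgf21 (-3.39). Among genes of interferon response and antigen presentation it was more negative in Ifit1 (-1.65), Ifit3 (-1.37), Irf7 (-1.14), Oas2 (-1.50), Ifit2 (-1.60) and B2m (-0.47). Among genes of macrophages, dendritic cells and bile ducts it was more negative in Folr2 (-1.78), Clec4f (-1.09), Timd4 (-1.33), Cd5l (-1.16), Csf1r (-1.32), Vsig4 (-1.20), Siglech (-2.09), Xcr1 (-2.12) and Muc1 (-1.52). Among genes of the cell cycle it was more positive in Cdca3 (3.12), Ncapd2 (1.59), Tacc3 (2.00), Stmn1 (2.56) and Mcm7 (0.98) and more negative in Ccnd2 (-0.75). It was also more positive in Hmgn5 (0.86), the nucleosome-binding protein. Among genes of lipids, secreted proteins and drug metabolism it was more positive in Srebf1 (1.38), Abcg5 (0.86), Abcg8 (0.99), Gstp1 (1.44) and Gsta1 (7.12). In the same group it was more negative in Mup3 (-3.82), Cyp2j5 (-0.53), Cyp2f2 (-0.93), Sult2a8 (-1.72), Serpina12 (-2.54), Rdh16 (-1.91), Pltp (-2.23) and Mbl1 (-0.72). Left without mouse 6, the differences between the days of Psat1 (1.25), Slc1a5 (0.78), Sdsl (0.57), Gsta1 (2.77), Npm1 (0.35) and Rpl13a (0.38) were no longer called. Another mouse left out ended the call for Psat1 (control mouse 1 or control mouse 5), Sdsl (control mouse 5), Abcg8 (leucine-free mouse 1) and Cd5l (7 mice), the mice in brackets each being enough. With the mouse number as a block Psat1, Cd5l, Csf1r, Vsig4, Npm1, Siglech, Xcr1 and Rpl13a were not called. Each difference between genotypes could be ended by leaving out 1 of 6 to 13 of the 22 mice of day 8, and none was called with no filter. With DESeq2 those of Eif4ebp3, Muc1 and Raet1e were not called. Among these genes only Gfra1 was called with the mouse number as a block or in the 22 libraries of day 8 alone.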

How the results depend on the processing

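The count of genes called between diets in DKO livers at day 8 was 3482 and stayed within 1.5-fold under every alternative, from 2369 (the 11 libraries compared, with the mouse number as a block) to 3903. Leaving out each mouse in turn gave 2674 to 3354. Of its calls 53.8% were higher, and 48.6% when libraries were scaled by total counts alone. The difference between genotypes rests on few calls. Its count of 7 became 60 with DESeq2, 89 with limma-voom, 12 at a mean of at least 1 CPM, 0 with no filter, 2 with the older dispersion estimate and 3 in the 22 libraries of day 8, and leaving out each mouse gave 0 to 38. The difference between days, 1494 genes, became 953 with no filter and 1017 to 1677 when mice were left out. Without leucine-free mouse 6 50.3% of these calls were positive, against 59.8%.

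With the mouse number as a replicate block the counts were 3472 between diets, 1 between genotypes and 949 between days, and the numbers showed no sign of pairing the mice.

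Reversed signs were near 0 in all but 1 gene. Gsta1 stood at -1.11 with limma-voom and ran from -1.97 to 2.66 when mice were left out. In the 11 libraries with the block Nupr1 was -0.019 and Gdf15 -0.011. With total counts Cdca3 was -0.016 and Socs2 -0.027. When mice were left out in turn, Nupr1 ran from -0.0020 to 1.41, Fgf21 from -0.41 to 0.11, Atf4 from -0.14 to 0.0032, Cyp3a16 from -1.38 to 0.0031, Sult2a7 from -1.10 to 0.086, Cdca3 from -0.089 to 0.095, Socs2 from -0.20 to 0.28 and Gdf15 from -0.12 to 0.30. The cause was not tested. Libraries were deep, and low genes such as Aurkb or Gsta1 are limited by counts. With 5 or 6 mice a group, 2 of them far apart, the spread between mice limits most other calls.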
